A study of Mus musculus with 21 samples.

Results

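The collagen genes followed here numbered 7 and were measured in 5 comparisons of mouse gonad RNA on two-colour arrays: Col1a1, Col1a2, Col3a1, Col4a1, Col4a2, Col6a1 and Col18a1. They were picked with earlier results of these arrays known, so counts and ranks of the 7 are descriptions and not independent findings. Their probes were taken by name, as every probe whose only gene symbol in the platform annotation was one of these. That gave 14 of the 16128 probes on the array. Of the 14 probes, 9 held a value on at least 3 arrays of every comparison and entered the tests, and the other 5 did not. Each of the 7 genes kept at least 1 probe among the 4465 genes tested.

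The series held 21 arrays, and each array compared total RNA of 2 sources in its 2 channels. Whole ovary was set against whole testis on 4 arrays, 15 day wild type testis against adult wild type testis on 4, and Spo11 knockout testis against wild type testis on 4. Whole testis on 4 arrays and whole ovary on 5 were set against Stratagene universal mouse reference RNA, a commercial pool of RNA. SPO11 is the protein that cuts DNA to start meiotic recombination. The labels gave neither strain nor allele, neither the age of the ovary and knockout animals nor the number of animals behind an RNA. The labels do not say which arrays shared an extract, so p-values here reflect array-to-array spread alone and that may be technical. The array annotation used here held no probe with the symbol Spo11, so the knockout was not checked on its own gene.

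Collagens are triple helices of 3 chains and form the main protein scaffold of tissues. Types I and III are fibrillar: Col1a1 and Col1a2 encode the chains of type I, and Col3a1 the chain of type III, which often lies in the same fibrils. Type IV builds the sheet-like network of basement membranes from chains such as those of Col4a1 and Col4a2, which assemble together. Type XVIII, from Col18a1, also lies in basement membranes, and its end fragment is known as endostatin. Col6a1 encodes a chain of type VI, which forms beaded filaments between fibrils and cells. In the testis a basement membrane and a layer of peritubular cells surround each seminiferous tubule, while the ovary has a fibrous stroma around its follicles.

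Upstream sequence was available for 6 of the genes, as the 250 bases before each annotated start in RefSeq on mouse build GRCm38.p6. Each window was searched on both strands for the exact letters CCAAT, for GGGCGG and for TATAAA. Col1a2 and Col3a1 are shown because their ratios moved together on the arrays while their upstream windows differ in composition. Capitals mark the matches. The Col1a2 window, on the plus strand at chr6:4505368-4505617, has 62% G and C, 1 CCAAT and 2 GGGCGG.
Col1a2: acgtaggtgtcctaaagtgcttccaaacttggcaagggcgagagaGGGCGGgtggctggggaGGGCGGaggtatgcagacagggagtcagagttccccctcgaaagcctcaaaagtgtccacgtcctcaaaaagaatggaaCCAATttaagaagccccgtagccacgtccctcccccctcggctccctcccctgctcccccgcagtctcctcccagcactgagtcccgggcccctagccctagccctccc
The Col3a1 window, on the plus strand at chr1:45311288-45311537, has 35.2% G and C, no CCAAT and no GGGCGG, and 1 TATAAA.
Col3a1: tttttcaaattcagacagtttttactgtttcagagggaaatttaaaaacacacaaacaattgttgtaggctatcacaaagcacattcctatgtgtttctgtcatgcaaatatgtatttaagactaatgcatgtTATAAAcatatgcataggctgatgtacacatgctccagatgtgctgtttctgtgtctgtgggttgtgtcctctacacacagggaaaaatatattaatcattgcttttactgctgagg
In the Col1a2 window the CCAAT lies 109 to 105 bases before the start and the GGGCGG matches lie at 205 to 200 and 188 to 183. The TATAAA of Col3a1 lies at 117 to 112. No match overlapped another. Among all 32851 windows of that length, 33.8% held CCAAT, 32.7% GGGCGG and 12.4% TATAAA, and the median share of G and C was 52.4%.

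Col4a1 and Col4a2 share a promoter region and are transcribed in opposite directions, with annotated starts 21 bases apart. The plus-strand start of Col4a2 is at 11312805 and the minus-strand start of Col4a1 at 11312826, so their annotated first bases overlap. The 30 bases of the plus strand that hold both starts, chr8:11312801-11312830 on GRCm38.p6, are shown because ratios of the tested probes of these neighbours differed. That difference was not tested, and a second Col4a1 probe, left out of the tests, read nearer to Col4a2. Capitals mark the 1 GGGCGG found in these 30 bases.
Col4a1 and Col4a2 starts: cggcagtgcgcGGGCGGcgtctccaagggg
The 250 bases before Col4a1 hold 74.4% G and C with 31 CG pairs, and those before Col4a2 hold 73.6% with 26. A match to a short motif is a description of the letters and not a binding site.

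All values below are log2 ratios of the source named first over the second, after each array was centred on its median, so 1 unit is a 2-fold difference. The files and labels state neither the unit nor the direction. The direction is likely rather than settled, and rests on genes of meiosis and sperm tails. Of these anchors, 5 of the 5 tested were lower in ovary than in testis and 5 of 5 higher in testis than in the reference RNA. They bear less on the direction of the other comparisons. At 15 days 1 was called higher and 2 lower, in the knockout 0 and 3, and in ovary against reference 0 and 0. Tekt2, a tubulin-associated protein of sperm tails, read -4.68 ± 0.33 (SE, n = 4) in ovary against testis and 5.74 ± 0.33 (n = 4) in testis against the reference. Turned signs would turn every direction given here. Arrays of one comparison with the channels swapped correlated at 0.471 or more over probes. Probes with a value per array ran from 6452 on replicate 1 of ovary against testis to 14012. A gene is called where the limma test against 0 gives a Benjamini-Hochberg adjusted p under 0.05 over all 4465 genes.

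In ovary against testis, all 3 fibrillar genes, Col6a1 and Col4a1 were higher in ovary by 4.06-fold to 7.83-fold. Of the 7 genes, 6 were called higher in ovary and 0 lower. Over all genes tested, 22.4% were called higher and 36.5% lower, and the median of all genes was -0.18. Col1a1 read 2.06, 3.19, 3.40 and 2.01 on the 4 arrays, a mean of 2.67 ± 0.23 (SE, n = 4; adjusted p = 1.8e-08). Its partner chain Col1a2 read 1.39, 2.53, 2.08 and 2.09, a mean of 2.02 ± 0.19 (n = 4; adjusted p = 1.21e-08). Every array of the type I genes lay above 0. Col3a1 read 1.10, 4.14, 3.54 and 3.10, a mean of 2.97 ± 0.39 (n = 4; adjusted p = 1.27e-06). The low first array of Col3a1 came from 1 of its 2 tested probes, 3047653, which read -0.59 there while probe 3057849 read 2.79. That array was the one with the fewest probes measured, and without it Col3a1 stood at 3.59.

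The beaded filament gene Col6a1 read 2.94, 3.53 and 1.93 on 3 arrays of ovary against testis and had no value on replicate 1. Its mean was 2.80 ± 0.27 (SE, n = 3; limma adjusted p = 4.78e-08). Among the basement membrane genes, Col4a1 read 2.32, 2.45, 3.08 and 2.08, a mean of 2.48 ± 0.18 (n = 4; adjusted p = 5.45e-10). Col4a2, the chain that pairs with it, read 1.43, 0.45, 0.65 and -0.64. These arrays fell on both sides of 0, and the mean of 0.47 ± 0.22 (n = 4; limma adjusted p = 0.0642) was not called. Single arrays decided it: without replicate 4 it was called at 0.84 (adjusted p = 0.00122), and without replicate 1 it was 0.15 (adjusted p = 0.544). With channel order as a term in the fit it also passed (adjusted p = 0.0401). Col18a1 read 0.25, 1.09, 1.60 and -0.05, with a mean of 0.72 ± 0.30 (n = 4; adjusted p = 0.0433). The call of Col18a1 was lost without replicate 2, at 0.60 (adjusted p = 0.161), or replicate 3, at 0.43 (adjusted p = 0.292), and held in 5 of 9 other settings of the fit (adjusted p from 0.0355 to 0.132).

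**Figure D1:**
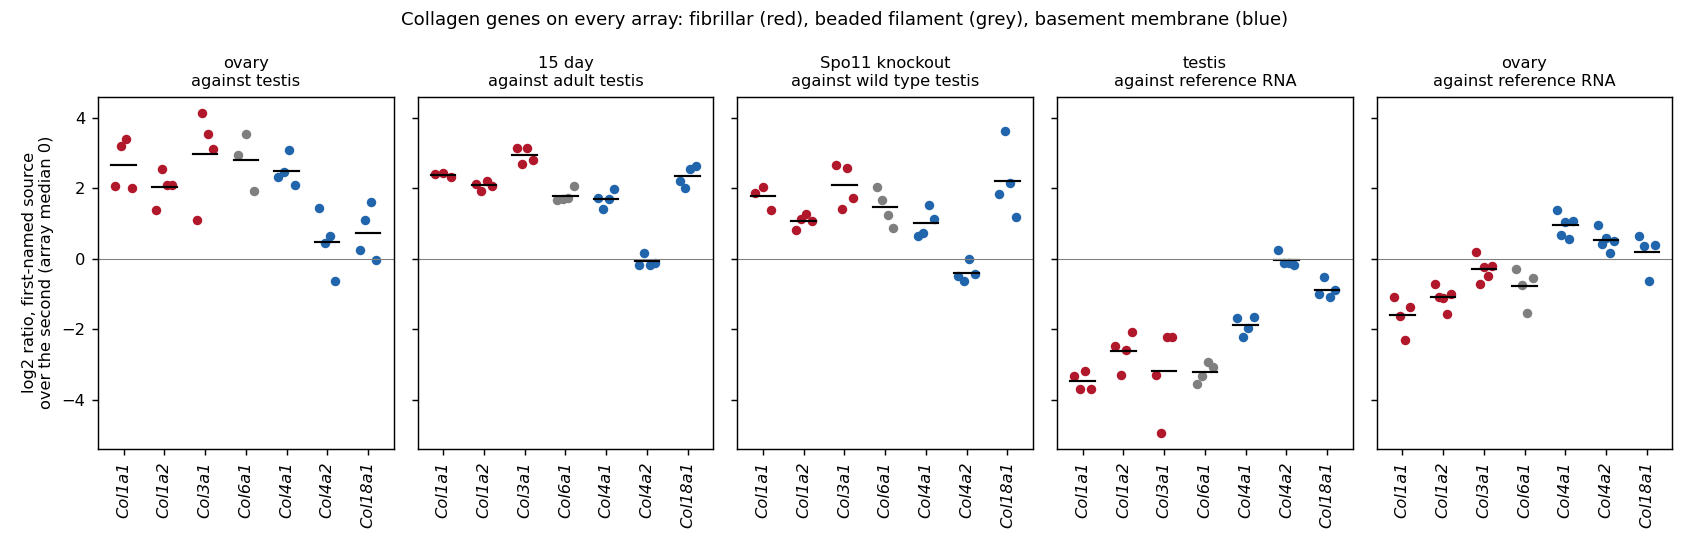
Log2 ratio of each collagen gene on every array (points) with the mean (bar), in the 5 comparisons, with fibrillar genes in red, Col6a1 in grey and basement membrane genes in blue. Fibrillar genes lay above 0 in the first 3 comparisons and below 0 in testis against reference RNA, down to -4.94 for Col3a1, while Col4a2 stayed between -0.64 and 1.43 throughout.

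Ratios of ovary to testis could also be formed through the reference RNA, from other arrays. The ovary against reference and testis against reference means gave an ovary to testis ratio of 1.89 ± 0.33 (SE) for Col1a1, 1.52 ± 0.25 for Col1a2 and 2.88 ± 0.52 for Col3a1. The same route gave 2.83 ± 0.25 for Col4a1, 2.44 ± 0.33 for Col6a1, 1.06 ± 0.42 for Col18a1 and 0.57 ± 0.29 for Col4a2. By this route 6 of the 7 were called higher in ovary, against 17.6% of all genes higher and 28.7% lower, and Col4a2 again was not (adjusted p = 0.107, limma). The direct ratio minus the indirect one was 0.77 ± 0.40 for Col1a1 and between -0.35 and 0.50 for the other 6 genes. None of the 7 differences was called (limma adjusted p = 0.999 for each). Over all genes 0% were called higher and 0% lower, while 74 genes had an unadjusted p under 0.05.

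In testis against the reference RNA, the fibrillar genes and Col6a1 were among the lowest of all genes tested. Of the 7 genes, 0 were called higher and 6 lower, where 35.5% of all genes were higher and 25.9% lower and the median of all genes was 0.12. Counting from the bottom of 4465 genes, Col1a1 ranked 6, Col6a1 13, Col3a1 15, Col1a2 36 and Col4a1 141. Col1a1 read -3.33, -3.70, -3.19 and -3.71, a mean of -3.48 ± 0.23 (SE, n = 4; adjusted p = 4.09e-10), which is 11.2-fold lower in testis. Col1a2 read -2.49, -3.30, -2.58 and -2.09, and its mean was -2.62 ± 0.19 (n = 4; adjusted p = 2.32e-10). Col3a1 read -3.30, -4.94, -2.23 and -2.22, and its mean was -3.18 ± 0.39 (n = 4; adjusted p = 4.1e-07). All 12 of these fibrillar values lay below -2, with Col3a1 the most spread.

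Col6a1 read -3.56, -3.33, -2.92 and -3.08 in testis against reference, a mean of -3.22 ± 0.24 (SE, n = 4; limma adjusted p = 7.77e-10). Col4a1 fell less, reading -1.69, -2.23, -1.97 and -1.66, with a mean of -1.89 ± 0.18 (n = 4; adjusted p = 1.74e-08). Col18a1 read -1.0, -0.53, -1.08 and -0.90, a mean of -0.88 ± 0.30 (n = 4; adjusted p = 0.0151). This call was lost without replicate 1, at -0.84 (adjusted p = 0.0508), or replicate 3, at -0.81 (adjusted p = 0.0537). Col4a2 read 0.24, -0.13, -0.13 and -0.19, and its mean of -0.053 ± 0.22 (n = 4; adjusted p = 0.849) was not called.

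In ovary against the same reference the classes lay on different sides of 0. Of the 7 genes, 1 was called higher and 3 lower, where 9.54% of all genes were higher and 13.4% lower and the median of all genes was -0.064. Col1a1 read -1.08, -1.62, -2.30 and -1.36 on the 4 arrays that measured it, a mean of -1.59 ± 0.23 (SE, n = 4; adjusted p = 5.32e-05). Col1a2 read -0.71, -1.08, -1.11, -1.57 and -0.99, a mean of -1.09 ± 0.17 (n = 5; adjusted p = 5.42e-05). Both type I genes lay below 0 on every array that measured them. Col3a1 read 0.18, -0.72, -0.25, -0.48 and -0.20, on both sides of 0, and was not called (-0.29 ± 0.35, n = 5; limma adjusted p = 0.591).

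Col6a1 read -0.30, -0.76, -1.53 and -0.54 in ovary against reference, a mean of -0.78 ± 0.24 (SE, n = 4; limma adjusted p = 0.0195). Its call was lost without replicate 2, at -0.79 (adjusted p = 0.0512), or replicate 4, at -0.53 (adjusted p = 0.17). Col4a1 was the member called higher, reading 1.38, 0.66, 1.05, 0.55 and 1.07, a mean of 0.94 ± 0.16 (n = 5; adjusted p = 0.00021). Col4a2 read 0.96, 0.41, 0.59, 0.15 and 0.50. All 5 arrays of Col4a2 lay above 0, and the mean of 0.52 ± 0.19 (n = 5; limma adjusted p = 0.0539) missed the threshold, though it passed in 4 of 10 other settings of the fit, whose adjusted p ran from 0.00124 to 0.299. Col18a1 read 0.64, 0.35, -0.63 and 0.38, and was not called (0.19 ± 0.30, n = 4; adjusted p = 0.702). Number series are the runs of adjacent array numbers in the titles. Within number series 3 and 5, 2 and 2 of the 7 genes were called in ovary against reference. Series 4 held 1 array of this comparison, replicate 3, which had no value for Col1a1, Col6a1 or Col18a1.

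The shared reference places ovary, testis and reference RNA in an order for each gene. For Col1a1, Col1a2 and Col6a1 the reference was highest, ovary lay between, and testis was lowest, and both steps were called. For Col3a1 and Col18a1 ovary and reference did not differ beyond their spread, and testis lay below both. For Col4a1 ovary was highest, then the reference, then testis, with both steps called. For Col4a2 the order ran ovary, reference, testis, and no step was called. The reference is a pool, so its level is a yardstick and not that of a tissue.

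In 15 day against adult testis 6 of the 7 members were among the most raised of all genes, and Col4a2 was not. Of the 7 genes, 6 were called higher at 15 days and 0 lower, where 18% of all genes were higher and 28.1% lower and the median of all genes was -0.068. From the top of 4465 genes Col3a1 ranked 2, Col1a1 4, Col18a1 5, Col1a2 8, Col6a1 12 and Col4a1 15. Col3a1 read 3.13, 2.68, 3.13 and 2.80, a mean of 2.94 ± 0.39 (SE, n = 4; adjusted p = 2.95e-06). Col1a1 read 2.39, 2.42 and 2.31 on 3 arrays, a mean of 2.37 ± 0.27 (n = 3; adjusted p = 9.44e-07). Col1a2 read 2.12, 1.93, 2.20 and 2.05, a mean of 2.08 ± 0.19 (n = 4; adjusted p = 1.85e-08). The arrays of this comparison lay close together, within 0.5 of each other for each fibrillar gene.

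Col6a1 read 1.67, 1.68, 1.72 and 2.06 at 15 days, a mean of 1.78 ± 0.24 (SE, n = 4; limma adjusted p = 4.83e-06). Col4a1 read 1.71, 1.42, 1.69 and 1.97, a mean of 1.70 ± 0.18 (n = 4; adjusted p = 2.15e-07). Col18a1 read 2.21, 2.0, 2.55 and 2.62, a mean of 2.35 ± 0.30, or 5.08-fold (n = 4; adjusted p = 2.45e-06). Its ratio here was larger than that of Col4a1, whereas in ovary against testis the order of these means was the opposite, and neither order was tested. Col4a2 read -0.18, 0.17, -0.18 and -0.12, and its mean of -0.078 ± 0.22 (n = 4; adjusted p = 0.794) was not called.

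In Spo11 knockout against wild type testis the same 6 genes were called higher in the knockout and 0 were lower. Over all genes 26.7% were higher and 30.5% lower, and the median of all genes was -0.035. Col3a1 read 2.66, 1.41, 2.58 and 1.71, a mean of 2.09 ± 0.39 (SE, n = 4; adjusted p = 9.83e-05). Col1a1 read 1.86, 2.04 and 1.39 on 3 arrays, a mean of 1.76 ± 0.27 (n = 3; adjusted p = 1.78e-05). Col1a2 read 0.81, 1.11, 1.27 and 1.08, a mean of 1.07 ± 0.19 (n = 4; adjusted p = 5.4e-05). Every fibrillar value lay above 0.

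Col6a1 read 2.03, 1.67, 1.24 and 0.87 in the knockout comparison, a mean of 1.45 ± 0.24 (SE, n = 4; limma adjusted p = 3.14e-05). Col4a1 read 0.63, 0.73, 1.51 and 1.13, a mean of 1.0 ± 0.18 (n = 4; adjusted p = 8.96e-05). Col18a1 read 1.84, 3.61, 2.15 and 1.17, a mean of 2.19 ± 0.30, or 4.57-fold (n = 4; adjusted p = 3.56e-06). Col18a1 had the widest spread of the members here, through its second array. Col4a2 read -0.48, -0.64, -0.02 and -0.44, below 0 on every array, and its mean of -0.40 ± 0.22 (n = 4; adjusted p = 0.122) was not called. All 4 knockout arrays lie in number series 1, which held no other comparison, so the knockout and that series cannot be told apart. With the arrays of each comparison averaged within a number series, which leaves 1 value for the knockout, the ratios stayed the same and 3 of the 6 calls were lost. These were Col1a2 (1.07, adjusted p = 0.0764), Col3a1 (2.09, adjusted p = 0.1) and Col4a1 (1.0, adjusted p = 0.0501).

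The knockout effect minus the 15 day effect was negative for all 7 genes, and 1 of them, Col1a2, passed the test of the difference. Over all genes 2.04% had a higher and 0.358% a lower knockout effect. The Col1a2 difference was -1.01 ± 0.26 (SE; 4 arrays against 4; limma adjusted p = 0.0437). The call did not hold when any 1 of the 8 arrays was left out, when the difference ran from -1.08 to -0.93 and the adjusted p from 0.0625 to 0.126. The differences of the other genes were -0.61 ± 0.38 for Col1a1, -0.85 ± 0.55 for Col3a1, -0.70 ± 0.26 for Col4a1, -0.33 ± 0.33 for Col6a1, -0.32 ± 0.30 for Col4a2 and -0.15 ± 0.42 for Col18a1. Their adjusted p ran from 0.189 for Col4a1 to 0.924 for Col18a1, which does not show that the effects are alike. In 9 other settings of the fit the Col18a1 difference ran from -0.76 to 0.24, so its sign depended on the setting. The knockout arrays all lie in number series 1, so this contrast cannot tell the knockout apart from that series.

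**Figure D2:**
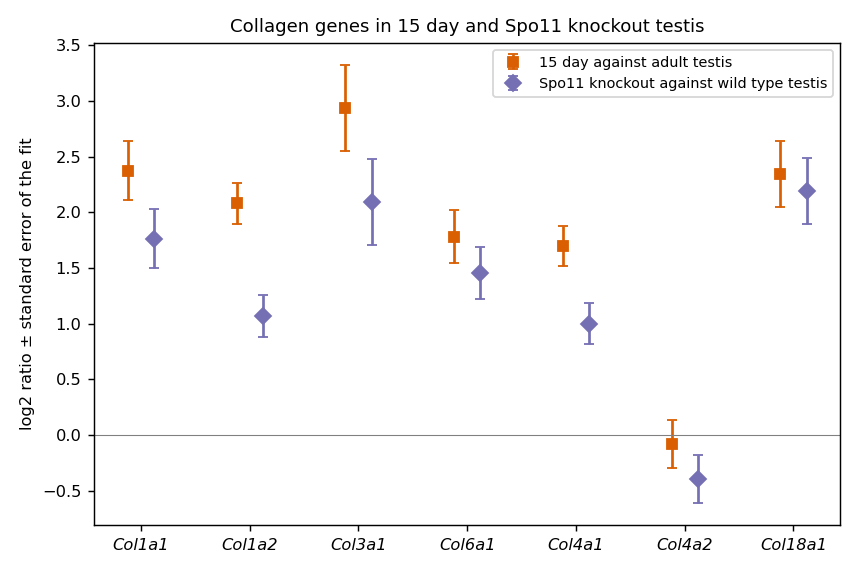
Log2 ratio (mean ± standard error of the fit) of each collagen gene in 15 day against adult testis (squares) and Spo11 knockout against wild type testis (diamonds), with 3 or 4 arrays a mean. Each diamond lies below its square, with a difference of -1.01 for Col1a2 and -0.15 for Col18a1, and both means of Col4a2 lie below 0.

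Averaged by class, the fibrillar mean of the members lay farther from 0 than the basement membrane mean in all 5 comparisons. In ovary against reference the signs were opposite. At 15 days and in the knockout this gap rested mostly on Col4a2, as the values without each gene show. In ovary against testis the fibrillar mean was 2.55 and the basement membrane mean 1.23, a difference of 1.33 ± 0.83 (SD, n = 4 arrays) that ran from 0.18 on replicate 1 to 1.96. At 15 days the difference was 1.16 ± 0.20 (SD, n = 4) and in the knockout 0.72 ± 0.34 (SD, n = 4). The sign was positive on 4 of 4 arrays in each of these comparisons. In testis against reference the fibrillar mean was -3.09 and the basement membrane mean -0.94, a difference of -2.15 ± 0.63 (SD, n = 4), negative on 4 of 4 arrays. In ovary against reference the means were -0.93 and 0.59, a difference of -1.52 ± 0.05 (SD, n = 5), which stayed between -1.61 and -1.47. Class means on an array took the genes with a value there. Col1a1 and Col18a1 had none on replicate 3 of ovary against reference. Col1a1 had none on replicate 1 at 15 days and replicate 3 of the knockout, so the spread mixes gene sets. The class difference is a description without a test, since the members were chosen with earlier results of these arrays known. It covers the chosen members only. Outside them, the type IV chain Col4a5 read 1.92 in ovary against testis, 1.65 at 15 days and -2.23 in testis against reference. The fibrillar chain Col5a3 read 0.92, 1.19 and -0.52 there, nearer to 0 than Col4a5, and both read 1.56 in the knockout.

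**Figure D3:**
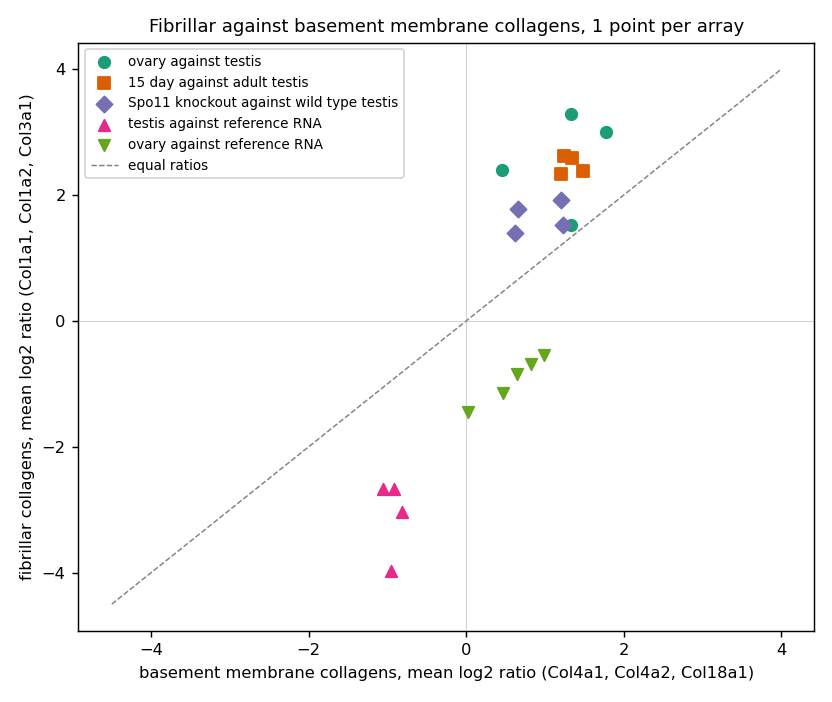
Mean log2 ratio of the fibrillar genes (vertical axis) against that of the basement membrane genes (horizontal axis), 1 point per array, with symbols for the 5 comparisons and a dashed line of equal ratios. Arrays of the first 3 comparisons lie above the line by 0.18 to 1.96, and for those against reference RNA the difference of the means runs from -3.02 to -1.47.

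The basement membrane mean covered genes that differed from each other. In the knockout the Col18a1 mean of 2.19 ± 0.30 (SE) lay above those of all 3 fibrillar genes. The nearest was Col3a1 at 2.09 ± 0.39 (SE), and this order was not tested. The Col18a1 arrays ran from 1.17 to 3.61, and its second probe, left out of the tests, averaged 0.35 (n = 2). At 15 days the Col18a1 mean of 2.35 lay above that of Col1a2, an order also not tested. Without Col18a1 the class difference was 1.68 at 15 days and 1.35 in the knockout. Without Col4a2 it was 0.46 ± 0.26 (SD, n = 4 arrays) at 15 days and 0.059 ± 0.51 (SD, n = 4) in the knockout, positive on 3 of 4 knockout arrays, so the classes did not differ beyond the spread there. In ovary against testis the difference was 0.95 ± 0.61 (SD, n = 4) without Col4a2, 1.07 ± 1.0 without Col18a1 and 1.95 ± 0.93 without Col4a1. Without Col18a1 it was positive on 3 of 4 arrays, with a lowest value of -0.36. In testis against reference it was -1.71 without Col4a2, -2.12 without Col18a1 and -2.63 without Col4a1. In ovary against reference it was -1.58, -1.66 and -1.33 in the same order, so against the reference the sign did not rest on 1 gene. Over the arrays Col4a1 correlated with Col4a2 at r = 0.278 (n = 21 arrays) and with Col1a1 at r = 0.874 (n = 18). Col1a1 and Col1a2 correlated at r = 0.983 (n = 18), Col1a2 and Col3a1 at r = 0.967 (n = 21), and Col6a1 and Col1a1 at r = 0.984 (n = 17). These correlations pool 5 comparisons with different means, and they are descriptions only.

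A second probe of Col4a1 read differently from the tested one. Probe 3070797, which was tested, averaged 2.48, 1.70, 1.0, -1.89 and 0.94 in the 5 comparisons in the order given above, with testis before ovary against reference. Probe 3067067 had values on only 2 knockout arrays and was left out of the tests, and it averaged 0.57, 0.43, -0.25, 0.038 and 0.61. Those values lie nearer to Col4a2 than to the other Col4a1 probe. With that probe included, under a filter of 2 arrays per comparison, Col4a1 read 1.53 in ovary against testis, 1.06 at 15 days, 0.61 in the knockout, -0.93 in testis and 0.77 in ovary against reference, and stayed called in each. The sequences of the probes were not used here, so which part of the transcript each one reads is unknown here.

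Col18a1 likewise had a second probe, 3074053, that averaged 0.90 ± 0.61 (SD, n = 4) at 15 days and 0.35 ± 0.19 (n = 2) in the knockout, below the 2.35 and 2.19 of the tested probe 3060721. The remaining probe, 3053773, had values on 2 arrays in all, 0.06 in ovary against testis and 0.24 in ovary against reference. The 2 tested probes of Col1a2 lay closer together, at 2.22 and 1.82 in ovary against testis and 2.0 and 2.16 at 15 days. For Col3a1 the untested probe 3064837 averaged 2.97 (n = 3) in ovary against testis and -2.52 (n = 4) in testis against reference. The other untested probe, 3054671, averaged 1.19 (n = 2) and -0.76 (n = 2) there. Col1a1, Col4a2 and Col6a1 had 1 probe each, with no second reading.

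**Figure D4:**
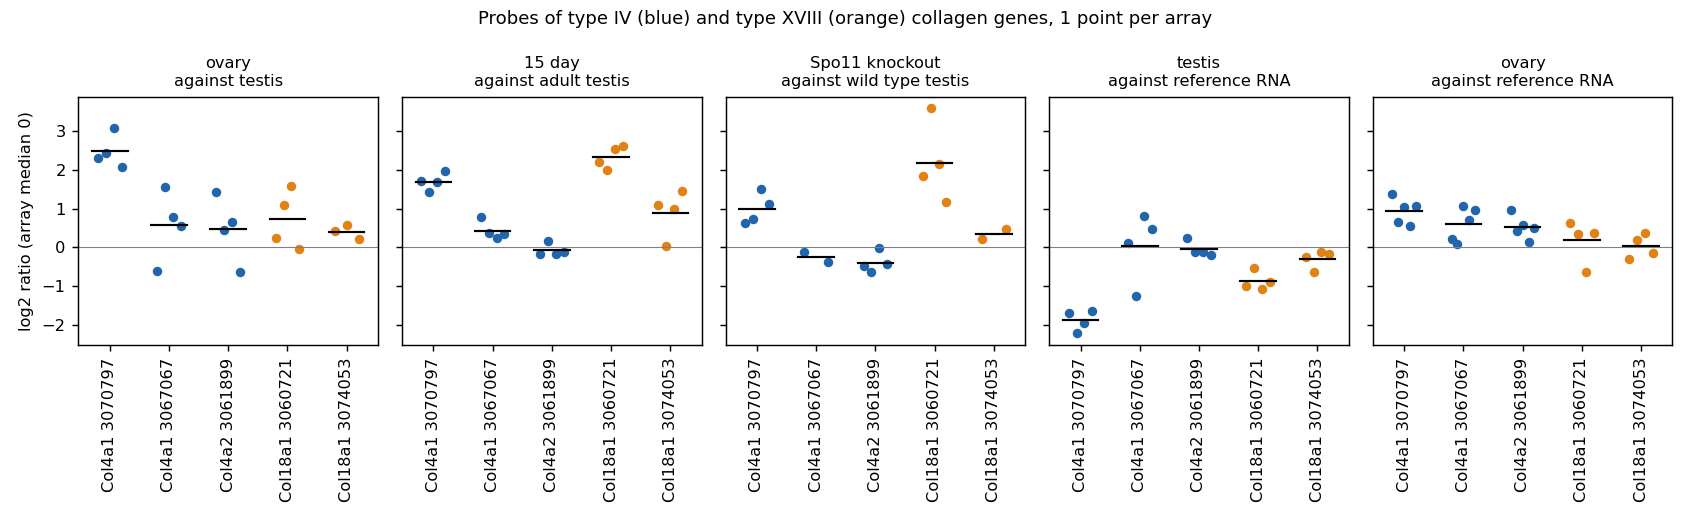
Log2 ratio on every array (points) with the mean (bar) for each probe of the type IV genes (blue) and of Col18a1 (orange, its 2 better measured probes), in the 5 comparisons. Probe 3070797 of Col4a1 spans -2.23 to 3.08, while probe 3067067 of the same gene and the Col4a2 probe lie nearer to 0.

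Of 37 other collagen genes, 10 had a probe and 4 were tested. Col4a5, a further type IV chain, was higher in ovary than in testis by 1.92 ± 0.41 (SE, n = 4; limma adjusted p = 0.000482), at 15 days by 1.65 ± 0.47 (n = 3; adjusted p = 0.00741) and in the knockout by 1.56 ± 0.47 (n = 3; adjusted p = 0.00816). In testis against reference it was lower, at -2.23 ± 0.41 (n = 4; adjusted p = 9.9e-05). Col5a3, a chain of the fibrillar type V, was also higher in ovary against testis (0.92), at 15 days (1.19) and in the knockout (1.56), and lower in testis against reference (-0.52). Col12a1, which binds along fibrils, was lower at 15 days (-0.70) and in the knockout (-0.82), and Col9a3, a type IX chain, was lower in the knockout (-1.86). None of the 4 was called in ovary against reference. The other 6 had too few values for the tests: Col2a1 averaged -1.2 (n = 3) and Col5a2 -1.34 (n = 3) in ovary against testis, Col22a1 -0.98 (n = 4), Col14a1 0.77 (n = 2), Col6a4 0.43 (n = 4) and Col6a5 0.33 (n = 3).

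Of 33 listed enzymes, chaperones and other factors that make and export collagen, 12 had a probe and 9 were tested. In ovary against testis 6 were higher and 1 lower (list median 0.79), beside 22.4% higher and 36.5% lower among all genes. They were led by Bmp1, which removes the C-terminal propeptide, at 1.2 ± 0.18 (SE, n = 4; limma adjusted p = 5.88e-06). Plod3, a lysyl hydroxylase, followed at 1.16, then Serpinh1, the collagen chaperone, at 0.93, and P4ha1, a prolyl hydroxylase subunit, at 0.84. At 15 days 3 were higher and 2 lower (median -0.048), not far from the 18% and 28.1% of all genes, with Bmp1 at 0.90, Plod3 at 0.86 and P4ha1 at 0.80 higher and Mia3, which loads procollagen for export, lower at -0.79. Serpinh1 did not pass there (-0.048 ± 0.22, n = 4; adjusted p = 0.878). In the knockout 5 were higher and 2 lower (median 0.88), beside 26.7% and 30.5% of all genes, with Pcolce, an enhancer of propeptide removal, at 1.85 ± 0.19 (adjusted p = 1.21e-07). Pcolce did not pass at 15 days (-0.18 ± 0.22, n = 3; adjusted p = 0.517). In testis against reference 0 were higher and 7 lower (median -1.06), led by Plod3 at -2.16, beside 35.5% and 25.9% of all genes. In ovary against reference Plod3 alone was called, lower at -1.11, beside 9.54% higher and 13.4% lower among all genes.

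Partners in the basement membrane were tested for 5 of 15 listed genes. In ovary against testis 3 were higher and 1 lower (median 0.73): Nid2, which links laminin to type IV collagen, at 1.27, the laminin chain Lamb1 at 0.96 and the collagen-binding Sparc at 0.73, against Agrn, a heparan sulfate proteoglycan, at -0.91. At 15 days Sparc (1.02) and Nid2 (0.98) were higher and Agrn (-0.56) lower, and in the knockout Sparc (1.57) and Nid2 (0.74) were higher and 0 lower. The list medians were 0.10 and 0.53 there. Among all genes 22.4% were higher and 36.5% lower in ovary against testis. These shares were 18% and 28.1% at 15 days, and 26.7% and 30.5% in the knockout. Read against them, counts over 5 genes say little about the list. In testis against reference 4 of the 5 were lower (median -0.82), with Lamb1 at -1.49, and in ovary against reference 2 were lower, Agrn at -0.68 and Lamc1 at -0.37 (median -0.23). Of all genes 25.9% and 13.4% were lower in these comparisons.

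Partners of the fibrils were tested for 4 of 10 listed genes. Bgn, a small proteoglycan that binds fibrils, was called in all 5 comparisons, at 1.37, 0.79 and 1.35 in ovary against testis, at 15 days and in the knockout, and at -2.39 and -1.04 in testis and ovary against reference. Fn1, fibronectin, was higher in ovary against testis (0.98) and lower in both tissues than in the reference (-3.93 in testis, -3.01 in ovary). Tnc, the matrix glycoprotein tenascin C, was higher in ovary than in testis (1.25) and lower in testis than in the reference (-1.04). Lum, another small proteoglycan, went the other way, at -1.16 in the knockout and 1.39 in testis against reference. In all, 3 of 4 were called higher and 0 lower in ovary against testis, 1 and 0 at 15 days, 1 and 1 in the knockout, 1 and 3 in testis and 0 and 2 in ovary against reference, with list medians of 1.12, -0.30, 0.22, -1.72 and -0.65. At 15 days and in the knockout these counts were near the all-gene shares of 18% higher, and of 26.7% higher and 30.5% lower. Shares higher and lower were 22.4% and 36.5% in ovary against testis, 35.5% and 25.9% in testis and 9.54% and 13.4% in ovary against reference.

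Genes of collagen breakdown were tested for 5 of 12. Timp3, an inhibitor of matrix proteases held in the matrix, was higher in ovary against testis (1.72), at 15 days (1.11) and in the knockout (1.55), and lower in testis against reference (-1.59). Mmp2, a gelatinase, was lower at 15 days (-0.96) and in the knockout (-1.27), where Mmp9, the other gelatinase, was higher (0.67 and 1.40). Timp2 was higher in the knockout (1.04) and lower in both tissues than in the reference (-1.31 in testis, -1.19 in ovary). Counts of higher and lower were 1 and 0 in ovary against testis, 2 and 1 at 15 days, 4 and 1 in the knockout, 0 and 2 in testis and 0 and 1 in ovary against reference, with list medians of 0.06, 0.42, 1.04, -0.36 and -0.42. The 1 of 5 higher in ovary against testis is near the 22.4% of all genes, and the 4 of 5 higher in the knockout stands beside 26.7%. All-gene shares lower were 25.9% in testis and 13.4% in ovary against reference, and at 15 days 18% were higher and 28.1% lower. Of 9 collagen receptor genes 2 were tested, the integrin chains Itgb1 and Itga1. Both were higher in ovary than in testis (1.23 and 0.93) and in the knockout (1.36 and 0.83), Itgb1 alone at 15 days (0.77), and both were lower against reference in testis (-2.27 and -1.88) and in ovary (-1.35 and -1.50). Their medians were 1.08, 0.50, 1.10, -2.08 and -1.42 in the order of the comparisons.

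Whole organs hold many cell types, and in such RNA fewer cells of a type and less RNA per cell cannot be told apart. Marker counts below stand beside the shares of all genes called. These were 22.4% higher and 36.5% lower in ovary against testis, and 18% and 28.1% at 15 days. They were 26.7% and 30.5% in the knockout, 35.5% and 25.9% in testis against reference and 9.54% and 13.4% in ovary against reference. Germ cell markers were lower in ovary against testis for 7 of 7 tested genes (median -3.39), and higher in testis against reference for 7 of 7. At 15 days 1 was higher and 3 lower (median -0.29), with Tekt2 at -4.69, and in the knockout 0 and 4 (median -0.67), with Tekt2 at -5.73. Genes of the Sertoli list were called higher for 4 of 7 in ovary against testis, led by Inha (2.85), where 1, Rhox5 (-1.65), was lower. They were called higher for 4 of 7 at 15 days and for 7 of 7 in the knockout. The list medians were 0.99, 0.83 and 1.77 in that order. These are counts of listed genes and do not show which cells held the RNA. The smooth muscle and peritubular markers tested, Tpm1 and Mylk, were higher in ovary against testis (2.43 and 1.59), at 15 days (1.43 and 1.40) and in the knockout (1.69 and 1.18). In testis against reference they split, with Tpm1 lower (-2.73) and Mylk higher (1.12). In ovary against reference Mylk was higher (2.49) and Tpm1 was not called. Of the fibroblast and stroma markers other than collagens, 5 were tested: Mgp was higher in the same 3 comparisons (2.71, 1.77 and 1.67) and Pdgfra lower (-1.22, -1.06 and -1.34). That list went both ways, with 2 higher and 1 lower in ovary against testis, 1 and 1 at 15 days and 1 and 2 in the knockout, and medians of -0.32, -0.42 and -0.21. It had 2 higher and 1 lower in testis against reference, and 1 and 0 in ovary against reference.

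Steroidogenic markers were called higher for 2 of 3 in ovary against testis (median 3.24) and 3 of 3 in the knockout (median 2.19), and lower for 2 of 3 at 15 days (median -2.02). Macrophage markers were higher for 3 of 4 in ovary against testis, 2 of 4 at 15 days and 4 of 4 in the knockout, with medians of 1.15, 0.67 and 1.49. Among all genes 22.4%, 18% and 26.7% were called higher in these comparisons, and 28.1% lower at 15 days. Counts over 3 or 4 genes say little about a list. Of 10 endothelial markers 4 had a probe and 0 were tested. The part of any of these cell types in the collagen ratios was not tested.

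The genes whose ratios ran most like the collagens over the arrays were named by Pearson r over at least 18 shared arrays. For the fibrillar mean they were Esd (r = 0.978, n = 19 arrays), Plod3 (0.976, n = 19), Slc6a13 (0.975, n = 21), Cd9 (0.973, n = 18) and Mtap (0.972, n = 19). Plod3 is the lysyl hydroxylase of the synthesis list, and Cd9 is a membrane tetraspanin. For Col6a1 they were Id2 (0.981), Rps4x (0.98), Wrnip1 (0.978), Lmf1 (0.978) and Cenpl (0.978), with 19 arrays each. For the basement membrane mean the values were lower: Ppdpf (0.941, n = 20), Lrp1 (0.915, n = 21), Pdia4 (0.908, n = 20), Ptprs (0.906, n = 20) and Ehmt1 (0.904, n = 18). These points share the same arrays and 5 group means, so the values describe likeness only.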

How the data were processed

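The deposited values of 21 two-colour arrays were read as log2 ratios, a unit inferred from the values because neither the labels nor the headers state it. What the authors did to make them (scanner, background correction, dyes) is not given in the sources used here. The number of arrays limits the precision. Each array was centred on its median. Of 16128 probes, 9604 had 1 gene symbol, 213 several and 6311 none in the platform annotation used here. The 7561 probes measured on 3 or more arrays of every comparison were averaged per symbol, giving 4465 genes. One limma model (limma 3.58.1, R 4.3.3) with a mean for each of 5 comparisons was fitted with lmFit and eBayes, and tested on simulated data. Two-sided p-values were Benjamini-Hochberg adjusted over all genes, with a threshold of 0.05. Groups came from the labels' descriptions, and the likely direction from their order of naming and from anchor genes. Members and lists were chosen with earlier results of these data known. Named were all members, every other collagen with a probe, at most 4 called genes per pathway list and comparison (2 for cell type lists) with the largest ratios, and the 5 genes most alike by r. Alternatives were the centring, the scaling, the probe filter, the channel order, the number series, each comparison fitted alone, the members of a class and leaving out each array.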

Additional observations from a re-analysis of the deposited data

Results flagged for a closer look

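Col4a2 on replicate 1 of testis against reference RNA read 0.24, apart from the other 3 arrays, of which the nearest read -0.13. The gap was 0.86 of the range of the group. Col6a1 on replicate 4 of 15 day against adult testis read 2.06, where the nearest of the others read 1.72 (0.872 of the range). Of the groups of arrays examined in this way, 37 in all, about 1 in 20 would stand out by chance.

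Col1a2 had a smaller ratio in Spo11 knockout against wild type testis than in 15 day against adult testis, and the test of that difference passed (-1.01, limma adjusted p = 0.0437). The call was lost when any 1 of the 8 arrays was left out.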

How the results depend on the processing

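Counts of called members are given out of 7. With probes measured on all 21 arrays, where only 4 of the genes could be tested, 3 were called in ovary against testis, at 15 days, in the knockout and in testis against reference. With arrays of 1 comparison in 1 number series averaged, 3 were called in the knockout. Within number series 3 and 5, 2 and 2 were called in ovary against reference, and series 4 held 1 array of that comparison. The Col1a2 difference between knockout and 15 day effects gave 0 calls with values as deposited, with a filter of 2 arrays, with series averaged, and in every fit without 1 array (0 to 0). With all arrays scaled to 1 spread, 1 gene differed between the direct and indirect ratios, Col1a2 at 1.19 (adjusted p = 0.0253). The class difference at 15 days was 1.78 with probes on all arrays, 1.62 with 2 arrays, 1.68 without Col18a1, 0.46 without Col4a2 and 1.51 with all probes. In the knockout it was 1.18 with probes on all arrays, 1.35 without Col18a1 and 0.059 without Col4a2. In ovary against reference it was -2.36 when scaled, -1.45 with probes on all arrays, -1.42 with 2 arrays, -1.66 without Col18a1, -1.58 without Col4a2, -1.33 without Col4a1 and -1.42 with all probes. Col18a1 in ovary against testis turned to -0.05 within series 5. Leaving out Col4a1 or Col4a2 was chosen after seeing the data. The causes were not tested. Probe intensities were not used here, and weak signal was not separated from strong. No paired analysis was possible because the labels give no replicate numbers that pair arrays across groups. The number series as a random block (consensus correlation -0.0354) changed no count of called members.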
